A study of Mus musculus with 4 samples.

Results

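*Aplnr*, which encodes the apelin receptor, and *Apln*, which encodes its ligand apelin, were followed in day 3 embryoid bodies (EBs), in which clumps of mouse embryonic stem cells (mESCs) begin to differentiate. They are 2 of the 24347 gene rows of the expression files. *Aplnr* was chosen by its decrease in EBs with a promoter KO of *Gm11549*, and *Apln* was selected on its role as the ligand of that receptor. The differences of both genes between genotypes are therefore given as a description, with their errors and without a test.

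The apelin receptor is a G protein-coupled receptor of the cell surface. It binds apelin, cut from a precursor that *Apln* encodes, and a further peptide hormone made from *Apela* (also called Elabela or Toddler). In the gastrulating mouse embryo *Aplnr* is switched on in mesoderm cells as they leave the primitive streak, and later the receptor takes part in the formation of the heart and blood vessels. Expression of *Apln* is known to respond to low oxygen through the hypoxia-inducible factor HIF1A.

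The study asked how NEMEP, a micropeptide encoded by *Gm11549*, acts in mesendoderm differentiation. RNA-seq compared 2 WT samples of EBs with 2 samples lacking the *Gm11549* promoter (promoter KO), which CRISPR/Cas9 had removed in the mESCs. All samples were of strain 129/Ola, were collected at day 3 after withdrawal of LIF, the cytokine that keeps mESCs undifferentiated, and had no other treatment. Edited cells had been grown from single sorted cells, and the sources used here do not say which clone gave promoter KO 1 or promoter KO 2. The samples are described as biological replicates, but no source used here says how the cultures were kept apart, so the spread between samples may be partly technical. A difference of clone and a difference of genotype cannot be told apart in this design.

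Levels are in FPKM, counts of fragments scaled by transcript length and by depth. Differences between genotypes are promoter KO minus WT means of log2(FPKM + 1), a scale on which the change of a gene near 1 FPKM is understated. The files hold no counts, and the depth was estimated from the value that 1 fragment gives in genes with a single annotated transcript. It came to about 25500000 (WT 1), 22800000 (WT 2), 22300000 (promoter KO 1) and 20400000 (promoter KO 2) fragments. The 4 samples were therefore of similar depth.

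The targeted gene, *Gm11549*, was listed at 0.750 FPKM (WT 1), 0.522 FPKM (WT 2), 0 (promoter KO 1) and 0.0659 FPKM (promoter KO 2). The order of the samples fits their labels, although the WT values themselves rest on about 49 and 31 fragments. The samples are labelled as mesendoderm. *T*, the T-box factor of the streak, was listed at 306 and 448 FPKM in WT against 50.5 and 127 FPKM in promoter KO. *Pou5f1*, a pluripotency factor, was at 1188 to 1545 FPKM in the 4 samples, so that RNA of undifferentiated or epiblast cells was abundant in every sample.

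*Apln* lies on the minus strand of chromosome X in GRCm38 (chrX:48025146-48034853). GENCODE M21 gives it 1 transcript of 3149 bases in 3 exons, and 2 of these carry a coding sequence of 77 codons. *Apela* lies on the minus strand of chromosome 8 (chr8:65028417-65037336), with transcripts of 975 and 945 bases that share a coding sequence of 54 codons. Both ligands are short peptides cut from the end of their precursors, and the coding sequences are shown because the peptides themselves are so small a part of the gene. Capitals mark the last 13 codons of *Apln*, which encode the active core of apelin, and the last 11 codons of *Apela*, the end of its peptide.
Apln: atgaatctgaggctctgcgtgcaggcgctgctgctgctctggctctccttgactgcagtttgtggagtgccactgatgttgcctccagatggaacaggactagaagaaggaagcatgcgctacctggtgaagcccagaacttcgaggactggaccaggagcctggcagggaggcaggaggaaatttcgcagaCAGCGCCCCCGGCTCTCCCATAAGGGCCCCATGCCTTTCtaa
Apela: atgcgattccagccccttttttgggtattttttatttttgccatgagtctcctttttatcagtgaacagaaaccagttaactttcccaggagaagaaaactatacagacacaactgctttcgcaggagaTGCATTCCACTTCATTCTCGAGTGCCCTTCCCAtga

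*Apln* was listed at 43.6 FPKM (WT 1), 42.3 FPKM (WT 2), 8.72 FPKM (promoter KO 1) and 16.0 FPKM (promoter KO 2). The WT samples were nearly equal, and both promoter KO samples lay well below them, with promoter KO 1 the lower. The mean was 42.9 ± 0.900 FPKM for WT against 12.4 ± 5.18 FPKM for promoter KO (SD, n = 2 each), 3.47 times higher in WT. The lowest WT value was 2.63 times the highest promoter KO value. On the log2 scale the difference was −1.77 (standard error 0.25), the 40th largest decrease among the 11941 genes tested, next to *Msx1* (−1.78) and *Arl4d* (−1.77). At the estimated depth these values rest on about 3221, 2796, 564 and 949 fragments, so counting error was small beside the difference.

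*Apela*, the gene of the other ligand, did not follow this pattern. It was listed at 54.5 FPKM (WT 1), 40.3 FPKM (WT 2), 65.4 FPKM (promoter KO 1) and 44.9 FPKM (promoter KO 2). The genotypes overlapped, and the lower value of each genotype came from its sample 2. The log2 difference was 0.21 with a 95% interval from −0.31 to 0.72 (limma, adjusted p = 0.536). Over the alternative settings its adjusted p ranged from 0.174 to 0.993, and the difference was −0.0062 without WT 2 and −0.06 without promoter KO 1. *Apela* overlaps the annotated transcript *Gm45886* on the same strand, with which it shares near-identical sequence, so its level is less certain than those of *Apln* and *Aplnr*, which have 0 such copies.

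FPKM values are per length of transcript, so the levels of the ligand genes can be set side by side. *Apln* made up 44.4% of the summed FPKM of *Apln* and *Apela* in WT 1 and 51.2% in WT 2, but 11.8% in promoter KO 1 and 26.3% in promoter KO 2. WT EBs thus held about equal levels of the ligand transcripts, and in promoter KO EBs *Apela* was the more abundant. Their sum was 98.0 and 82.6 FPKM in WT against 74.1 and 61.0 FPKM in promoter KO.

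**Figure D1:**
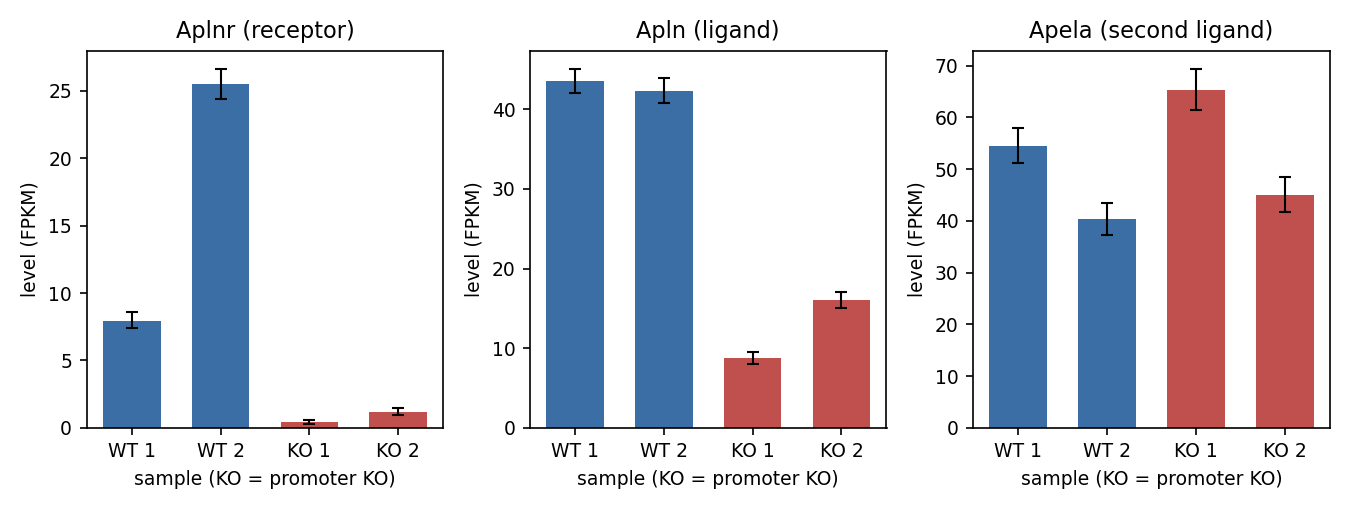
Level of the receptor gene *Aplnr* and of the ligand genes *Apln* and *Apela* in FPKM in each of the 4 samples (blue WT, red promoter KO), with 95% intervals for counting error at the estimated depth. *Aplnr* and *Apln* were lower in both promoter KO samples than in both WT samples, while the genotypes overlapped for *Apela*.

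*Aplnr* lies on the plus strand of chromosome 2 (chr2:85136225-85139923). Its main transcript is a single exon of 3699 bases with a coding sequence of 377 codons, and no other annotated gene overlaps it. *Aplnr* was listed at 7.95 FPKM (WT 1), 25.5 FPKM (WT 2), 0.435 FPKM (promoter KO 1) and 1.19 FPKM (promoter KO 2). The promoter KO samples lay far below the WT samples, and the WT samples also differed from each other. The mean was 16.7 ± 12.4 FPKM for WT against 0.811 ± 0.531 FPKM for promoter KO (SD, n = 2 each), a ratio of 20.6, and the lowest WT value was 6.70 times the highest promoter KO value.

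The log2 difference of *Aplnr* was −3.12 (standard error 0.50), the 3rd largest decrease of the 11941 genes tested, between *Ltb* (−4.09) and *Lhx1* (−3.04). In both members the promoter KO samples lay below the WT samples, as they did in 32.4% of all genes tested, and since *Aplnr* was chosen by this contrast nothing is read from that count. Its size varied with the scale: it was −4.11 with a pseudocount of 0.1 and −4.37 as a log2 ratio of mean FPKM. It also depended on the WT sample, and was −3.90 without WT 1 and −2.34 without WT 2. In bulk RNA, fewer cells that express the receptor and less receptor RNA per cell cannot be told apart.

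At the estimated depth *Aplnr* had about 700 (WT 1), 2006 (WT 2), 33 (promoter KO 1) and 83 (promoter KO 2) fragments. The 95% Poisson interval was 0.295 to 0.602 FPKM in promoter KO 1 and 0.939 to 1.46 FPKM in promoter KO 2. *Aplnr* RNA was thus still present in promoter KO EBs, at a level that counting error separates between the samples. In WT 2, *Aplnr* was above 69.6% of the genes tested, in WT 1 above 39.2%, and in promoter KO 1 and promoter KO 2 above 0.5% and 4.3%. *Apln* moved less in this order, from above 81.2% and 80.3% of the genes in the WT samples to above 42.8% and 58.4% in the promoter KO samples. The genes tested are those that reached 1 FPKM in 2 or more samples, which *Aplnr* did in both WT samples. Its low place in promoter KO was thus set in part by this filter, and nothing is read from it. Of the 24347 gene rows, 7374 (promoter KO 1) and 7554 (promoter KO 2) were listed at 0.

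*Aplnr* was lower in promoter KO by a larger factor than *Apln*, so the ratio of ligand to receptor transcripts was higher there. Since *Aplnr* was chosen by its decrease and the ligand genes were not, this direction is built in by the choice. The ratios are given as a description only. The FPKM ratio of *Apln* to *Aplnr* was 5.48 (WT 1), 1.66 (WT 2), 20.0 (promoter KO 1) and 13.5 (promoter KO 2). For *Apela* to *Aplnr* the ratio was 6.85, 1.58, 150.2 and 37.9 in the same order. In each sample ligand transcripts outnumbered receptor transcripts per unit of length, by the least in WT 2 and by the most in promoter KO 1.

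**Figure D2:**
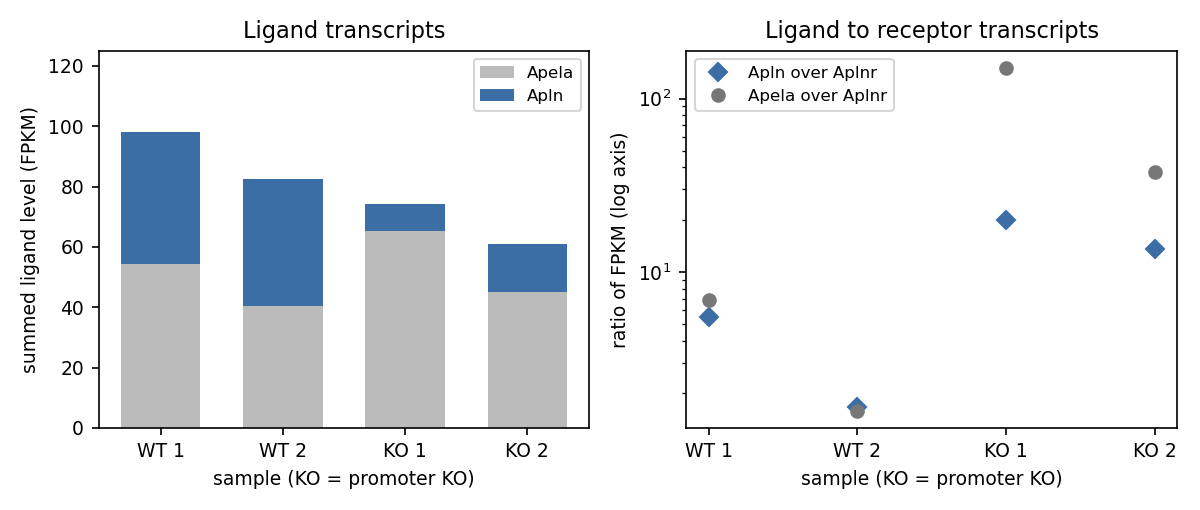
Left, level of the ligand genes *Apln* and *Apela* stacked, in FPKM, in each sample. Right, FPKM ratio of each ligand gene to *Aplnr* on a log axis, with the lowest ratios in WT 2 (1.66 and 1.58) and the highest in promoter KO 1 (20.0 and 150.2).

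The expressed genes on either side of *Aplnr* and *Apln* differed less between genotypes than these did, and limma called 0 of 5, beside 1.89% of all genes lower and 1.68% higher. Of the 5, 4 (all but *Ssrp1*) were lower in both promoter KO samples than in both WT samples, as were 32.4% of all genes tested, and 2 (*Tnks1bp1* and *Zdhhc9*) had an unadjusted p under 0.05, beside 15.6% of all genes that were lower at this level. Beside *Aplnr*, *Ssrp1* (a histone chaperone gene 89.1 kb away) was at 184 to 186 FPKM in all samples, with a log2 difference of −0.0020 (limma, adjusted p = 0.988, and 0.03 after median centring), and *Tnks1bp1* had a difference of −0.34 (adjusted p = 0.142). *4930443O20Rik* and *Lrrc55* reached at most 0.104 FPKM, and the olfactory receptor genes *Olfr987* and *Olfr988* were listed at 0 in every sample. Around *Apln*, *Ocrl*, *Smarca1* and *Zdhhc9* had log2 differences of −0.25, −0.29 and −0.37 (limma, adjusted p = 0.266, 0.205 and 0.104). *Xpnpep2* and *Sash3* reached at most 0.125 FPKM, and *Actrt1* was listed at 0 in every sample.

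Signaling from the receptor needs enzymes that trim the ligands, G proteins, arrestins and kinases, and 42 genes of these steps were listed together with *Apela*. Of them 39 passed the filter of at least 1 FPKM in at least 2 samples. limma called 0 of the 39 lower and 0 higher at an adjusted p under 0.05, where it called 1.89% of all genes tested lower and 1.68% higher. At an unadjusted p under 0.05, 13 were lower and 2 were higher, against 15.6% and 15.0% of all genes. The median log2 difference was −0.15, beside 0.0042 over all genes tested. With sample promoter KO 2 left out 4 genes were called lower (*Gnai2*, *Hdac5*, *Map2k1* and *Smad3*, named after their values were seen), beside 342 of 11728 genes in that fit.

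The most abundant gene of this list was *Gnai2*, an inhibitory G protein subunit through which the receptor signals. It was listed at 325 and 319.5 FPKM in WT against 189.5 and 243 FPKM in promoter KO, which did not overlap (log2 difference −0.58, limma, adjusted p = 0.0583). *Furin* and *Pcsk6* encode proteases of the kind that cut peptide precursors, and were named after their values were seen. The level of *Furin* was 17.8 and 19.4 FPKM in WT against 10.95 and 14.3 FPKM in promoter KO (adjusted p = 0.0851), and that of *Pcsk6* was 2.79 and 2.14 FPKM in WT against 5.25 and 3.59 FPKM in promoter KO (adjusted p = 0.106). *Mme*, which encodes the peptidase neprilysin and was likewise named after its values were seen, was at 1.53 to 1.99 FPKM. The transcription factor gene *Klf2*, also named after its values were seen, spread from 23.8 to 54.2 FPKM within WT and overlapped between genotypes (adjusted p = 0.214). Most genes of the receptor pathway were thus expressed in both genotypes.

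Among other peptide and chemokine receptors and their ligands, 12 of 31 listed genes passed the filter, and limma called 5 lower and 1 higher, beside 1.89% and 1.68% of all genes tested. The lower genes were *Cxcr4*, the chemokine receptor of migrating mesoderm and endoderm (log2 difference −1.94, adjusted p = 0.0472), *Adm*, the gene of the vascular peptide adrenomedullin (−1.68, 0.0423), the protease-activated receptors *F2rl1* (−0.96, 0.0311) and *F2r* (−0.67, 0.046), and *Ramp2*, a partner of the adrenomedullin receptor (−0.88, 0.0316). *Cxcr4* was listed at 4.74 and 10.8 FPKM in WT against 1.41 and 0.901 FPKM in promoter KO, so like *Aplnr* it was higher in WT 2 than in WT 1. The gene called higher was *Cxcl12*, which encodes the ligand of CXCR4, at 21.1 and 18.9 FPKM in WT against 30.8 and 31.8 FPKM in promoter KO (0.62, adjusted p = 0.0433). *F2r* and *Cxcl12* were named after their values were seen. For the pair *Cxcr4* and *Cxcl12* the receptor gene fell and the ligand gene rose, whereas *Apln* was lower together with *Aplnr*. The ligand gene *Adm* was likewise lower together with the receptor partner gene *Ramp2*. Since *Aplnr* was chosen by its decrease, the comparison of these pairs is a description only. *Ackr3*, named after its values were seen, was at 1.22 and 1.76 FPKM in WT against 0.529 and 0.762 FPKM in promoter KO. It was not called, and it passed the filter only through WT, so it could only come out lower. The median of this list was −0.34. Its most abundant gene, *Trh*, which encodes a hormone precursor, was at 694 and 599 FPKM in WT against 2336 and 1145 FPKM in promoter KO (1.34, not called), and *Trhr*, its receptor gene, was at 0 in every sample. With *Trh* the summed level of the list was 823 and 734 FPKM in WT against 2437 and 1251 FPKM in promoter KO.

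Among genes of the streak and nascent mesoderm, the cells that *Aplnr* marks in the embryo, limma called 10 of 30 tested genes lower and 1 higher (1.89% and 1.68% over all genes), and the median log2 difference was −1.50. The largest decreases among the called genes were in *Mesp1*, the factor of the earliest cardiac and head mesoderm (−4.14, adjusted p = 0.0467), *Lhx1* (−3.04, 0.0208), the secreted Wnt antagonist *Frzb* (−2.75, 0.0377) and the homeobox gene *Mixl1* (−2.74, 0.0389). The gene called higher, *Nodal*, encodes the signal that induces the streak and was named after its value was seen (0.74, adjusted p = 0.0389). Summed over the 34 listed genes the level was 2002 and 2756 FPKM in WT against 950.4 and 1161 FPKM in promoter KO. By its mean over the samples the most abundant gene was *Tdgf1*, the Nodal coreceptor, although *T* was above it in WT 2, and 0 of the listed genes were at 0 in every sample.

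In a list of hypoxia targets, which does not hold *Apln*, limma called 12 of 28 tested genes lower and 0 higher, beside 1.89% and 1.68% over all genes. At an unadjusted p under 0.05 these were 23 and 0, beside 15.6% and 15.0%, and the median was −0.78. The 4 with the largest decrease were *Aldoc*, a glycolytic enzyme (−2.26, adjusted p = 0.0404), *Ndrg1* (−2.08, 0.0371), the oxygen-sensing prolyl hydroxylase *Egln1* (−1.78, 0.0389) and *Ankrd37* (−1.69, 0.0208). Summed over the list, the level was 8582 and 9305 FPKM in WT against 4898 and 5639 FPKM in promoter KO, with *Ldha* the most abundant gene. The oxygen level of the cultures is not given in the sources used here, and its part in the level of *Apln* was not tested.

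Lists of mesoderm derivatives and of endoderm were mixed, and over all genes tested 1.89% were called lower and 1.68% higher. Of 15 tested genes of lateral, cardiac and extraembryonic mesoderm, limma called 2 lower, *Msx1* (−1.78, adjusted p = 0.0467) and *Gata6* (−1.65, 0.0389), and 0 higher, with a median of −0.58. At an unadjusted p under 0.05, 7 were lower and 0 higher, beside 15.6% and 15.0% of all genes. Of 11 tested endothelial and blood genes 4 were called lower and 1 higher, with a median of −0.06. These were *Etv2*, the factor that opens the endothelial program (−1.84, adjusted p = 0.0244), *Lmo2* (−1.16, 0.0476), the VEGF receptor *Flt1* (−1.13, 0.0371), *Ramp2* again, and *Sox7*, which was higher (1.14, 0.0371). *Sox7* was at 0.289 and 0.221 FPKM in WT against 1.87 and 1.66 FPKM in promoter KO. It passed the filter only through the promoter KO samples, so the direction of its call was set by the filter. Some markers of endothelium and blood were low in every sample (*Cdh5* at most 0.546 FPKM, *Tal1* at most 0.821 FPKM and *Emcn* at 0). *Tek*, at 0.387 and 0.431 FPKM in WT against 1.77 and 1.05 FPKM in promoter KO, and *Pecam1*, at 1.83 and 2.97 FPKM in WT against 5.95 and 3.78 FPKM in promoter KO, were higher in both promoter KO samples but were not called. *Tek*, like *Sox7*, passed the filter only through the promoter KO samples. In the definitive endoderm and anterior streak list 6 of 18 genes were called lower and 1 higher, led by *Lhx1* and *Gsc* (−2.33, adjusted p = 0.0372) and, in the other direction, *Spink1* (1.84, 0.0208), with a median of −0.65. The endoderm markers *Foxa2* (−0.98, limma, adjusted p = 0.154) and *Sox17* (−0.79, 0.0779) were lower in both promoter KO samples but were not called. Some genes stand in more than 1 list, among them *Lhx1*, *Gsc*, *Cxcr4*, *Adm*, *Ramp2*, *Gata6* and *Sox7*, so the counts of the lists are not independent.

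In lists of extraembryonic endoderm and of pluripotency more genes were called higher than lower, where over all genes tested 1.68% were called higher and 1.89% lower. Of 23 tested genes of extraembryonic endoderm, limma called 13 higher and 1 (*Gata6*) lower, with a median of 1.39, and the 4 with the largest increase were *Srgn* (3.54), *Ctsh* (2.82), *Lama1* (2.76) and *Amn* (2.56), with adjusted p of 0.0313, 0.0233, 0.0208 and 0.0208. The 13 include *Sox7* and *Cubn* (named after its values were seen), with means of 0.255 and 0.215 FPKM in WT against 1.76 and 3.69 FPKM in promoter KO. These passed the filter only through promoter KO and could only come out higher. Of the cell type markers, *Dab2* (1.86) and *Ttr* (1.70) were called higher, while *Afp* (1.39) was not called. *Hnf4a*, at most 1.24 FPKM, was not tested. *Gata4* overlapped between genotypes and was not called, at 5.02 and 19.4 FPKM in WT against 9.68 and 13.8 FPKM in promoter KO. The summed level of the 25 listed genes was 814 and 844 FPKM in WT against 1263 and 1430.1 FPKM in promoter KO, most of it from *Apoe*, and 0 of them were at 0 in every sample. Of 25 pluripotency and epiblast genes 4 were called higher, *Dnmt3l* (1.92), *Utf1* (1.35), *Dppa4* (1.07) and *Pou3f1* (1.04), and 1 lower, *Tdgf1* (−0.55, named after its value was seen), with adjusted p of 0.0422, 0.0275, 0.0467, 0.0208 and 0.0422 and a list median of 0.76. Their summed level was 4392 and 4025 FPKM in WT against 6641 and 5424 FPKM in promoter KO, with *Pou5f1* the most abundant by its mean over the samples, though not in promoter KO 1, and 0 genes at 0 in every sample. The markers *Pou5f1* (0.20), *Sox2* (0.76), *Esrrb* (1.52) and *Zfp42* (1.01) were higher in both promoter KO samples but were not called. *Nanog* was lower in both and not called, at 139.9 and 113.2 FPKM in WT against 94.1 and 98.7 FPKM in promoter KO. The part of these cell types in the lower level of *Aplnr* and *Apln* was not tested.

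In the remaining lists 6 of 19 neuroectoderm and 9 of 15 trophoblast genes passed the filter, and the shares called over all genes tested were again 1.89% lower and 1.68% higher. Of the 6 neuroectoderm genes *Neurod1* (1.38, adjusted p = 0.0371) and *Sox3* (0.70, 0.0493) were higher and *Zic2* (−0.60, 0.0389) was lower, while the defining markers *Sox1* and *Pax6* reached at most 0.357 and 0.565 FPKM, and the median of the list was 0.06. *Neurod1* was at 0.863 and 0.554 FPKM in WT against 3.89 and 2.99 FPKM in promoter KO. It passed the filter only through promoter KO, so it could only come out higher. Of the 9 trophoblast genes *Tfap2c* was called lower (−1.48, adjusted p = 0.0422) and 0 were called higher by limma. At an unadjusted p under 0.05, 5 were lower and 1 was higher, beside 15.6% and 15.0% of all genes. *Hand1*, also in this list, passed the filter only through WT and could only come out lower. The most abundant genes of that list, *Eomes* (−1.16, adjusted p = 0.0547) and *Krt8* (−0.77, adjusted p = 0.163), were not called, and *Tpbpa* and *Prl3d1* were listed at 0 in every sample. The median of the list was −0.77.

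**Figure D3:**
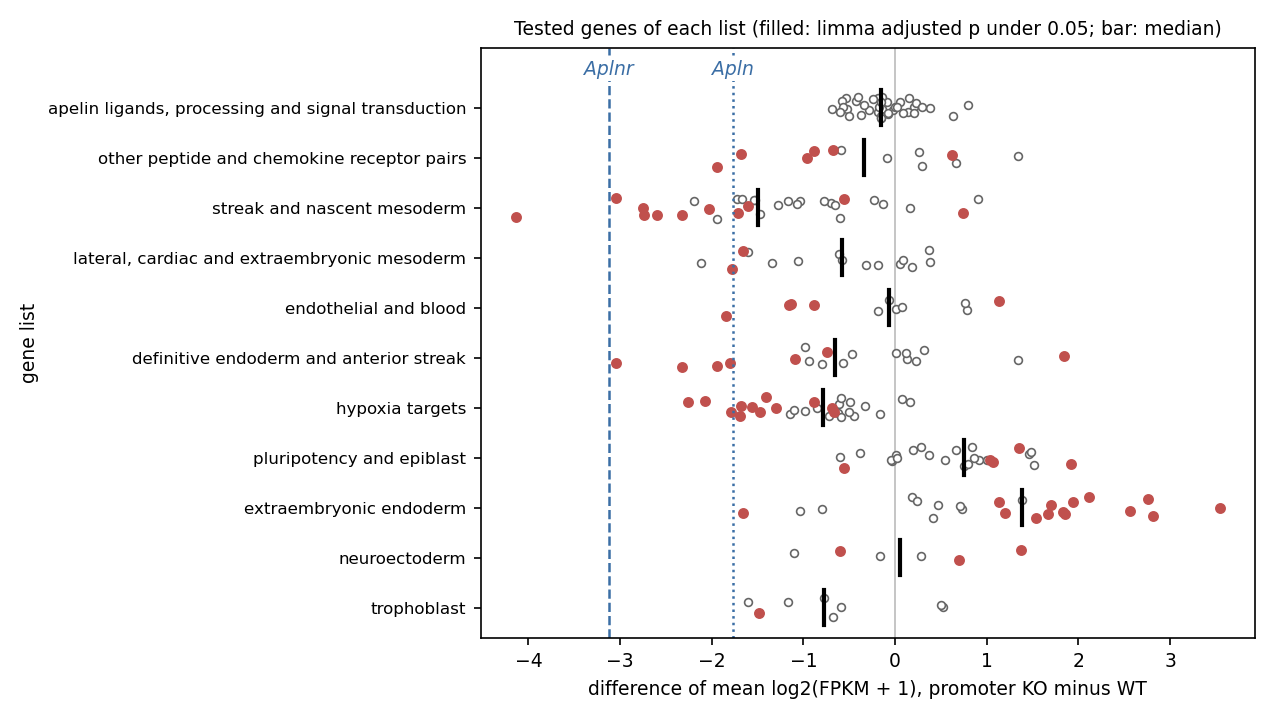
Difference of mean log2(FPKM + 1), promoter KO minus WT, of every tested gene in 11 lists, with called genes filled and list medians as black bars. Lines mark *Aplnr* (−3.12) and *Apln* (−1.77), which lie among the streak genes and beyond all 39 tested genes of the apelin pathway list, whose median was −0.15. *Aplnr* was chosen by this decrease, so its place follows from the choice and nothing is read from it.

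The calls in these lists borrow their variance from other genes through limma, since an exact two-sided permutation test of 2 against 2 samples cannot give a p below 0.333. Over all genes limma called 226 lower and 201 higher, but 0 in either direction without the filter on low values (1982 lower and 2077 higher at an unadjusted p under 0.05), 0 without WT 2 (921 and 900) and 0 without promoter KO 1 (1056 and 886). Without WT 1, 84 were lower and 44 higher, and without promoter KO 2, 342 and 296. In the same order (without WT 1, WT 2, promoter KO 1 and promoter KO 2), 8, 0, 0 and 14 streak genes were called in either direction, and 1, 0, 0 and 16 hypoxia targets were called lower.

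Between the WT samples the genes of the receptor and its ligand differed in pattern. *Aplnr* was 3.21 times higher in WT 2 than in WT 1, a log2 difference of 1.57 that only 0.285% of the genes tested exceeded in size, in either direction. *Apln* was 0.971 times its WT 1 level in WT 2, and 81.8% of genes differed more. Of the 30 streak genes 27 were higher in WT 2, with a median log2 difference of 0.78, beside 49.1% of all genes and a median of −0.0035. For the hypoxia targets these figures were 19 of 28 and 0.11. The WT difference of *Aplnr* thus had the direction of most streak genes, while that of *Apln*, a log2 difference of −0.04, was close to the median of all genes.

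Most genes of lateral, cardiac and extraembryonic mesoderm were also higher in WT 2 (13 of 15, median log2 difference 0.93). So were 8 of 9 trophoblast genes (0.70). Pluripotency (14 of 25, 0.09) and extraembryonic endoderm (13 of 23, 0.04) were closer to the 49.1% of all genes. The apelin pathway had 20 of 39 (0.006), the other receptors and ligands 6 of 12 (−0.0007), and endothelial and blood genes 7 of 11 (0.14). In definitive endoderm and anterior streak 7 of 18 were higher in WT 2 (−0.11), and in neuroectoderm 2 of 6 (−0.22). Among the genes higher in WT 2 were markers of mesoderm that has left the streak. *Mesp1* was listed at 27.0 FPKM in WT 1 and 100.7 FPKM in WT 2, and *Tbx6*, a paraxial mesoderm factor, at 1.29 and 6.74 FPKM. *Kdr*, the VEGF receptor of early vascular and cardiac progenitors, was at 1.67 and 11.3 FPKM, and *Hand1*, of lateral and extraembryonic mesoderm and named after its values were seen, at 1.27 and 11.3 FPKM. Other streak genes varied in this respect: *Mixl1* was 1.21 times, *T* 1.46 times, *Evx1* 1.95 times and *Frzb* 2.18 times higher in WT 2. With 1 sample on each side these are differences between samples of 1 genotype, and whether the samples were at different stages was not tested.

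Between the promoter KO samples both genes were higher in promoter KO 2, *Aplnr* 2.73 times and *Apln* 1.84 times. *Mesp1* was 5.59 times and *T* 2.51 times higher there, but *Kdr* and *Hand1* were not, at 0.794 and 0.857 times their level in promoter KO 1. Of the hypoxia targets 27 of 28 were higher in promoter KO 2, with a median log2 difference of 0.48, and of the streak genes 22 of 30, with a median of 0.46, beside 53.5% of all genes and a median of 0.0163. Promoter KO 1 was thus the sample farther from WT for *Aplnr*, *Apln* and most genes of both lists.

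**Figure D4:**
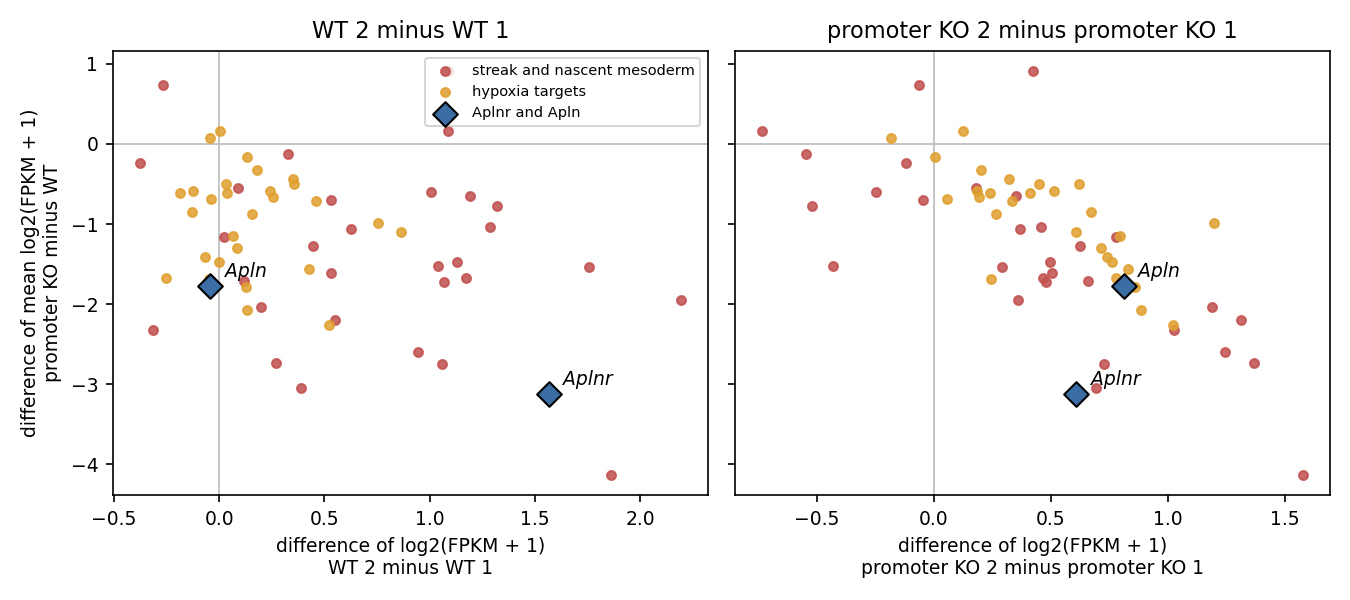
Difference between the samples of 1 genotype (horizontal axis, log2(FPKM + 1), WT left and promoter KO right) against the difference promoter KO minus WT of the means (vertical axis) for the streak genes, the hypoxia targets, *Aplnr* and *Apln*. In the WT panel *Aplnr* lies at 1.57 among the streak genes and *Apln* at −0.04.

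The 10 genes whose profile over the 4 samples was nearest to that of *Aplnr*, by Euclidean distance of mean-centred log2(FPKM + 1), were *Frzb* (0.52), *Evx1* (0.82), *Lhx1* (0.84), *Cfc1* (0.88), *5730457N03Rik* (0.95), *Six2* (0.98), *Cyp26a1* (1.08), *Vax1* (1.11), *Psmb8* (1.13) and *Mixl1* (1.13). Of these 4 were in the streak list and 0 among the hypoxia targets. *Frzb* was at 11.6 and 25.2 FPKM in WT against 1.10 and 2.47 FPKM in promoter KO, and *Cfc1*, which encodes the Nodal coreceptor Cryptic, at 4.17 and 13.8 FPKM in WT against 0.569 and 1.18 FPKM in promoter KO. All 10 were higher in WT 2 than in WT 1 and lower in both promoter KO samples than in both WT samples. The distance was measured on the samples in which *Aplnr* was chosen, so that a decrease in promoter KO is built into it. A higher level in WT 2 than in WT 1 is built in likewise, since *Aplnr* itself had it.

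The 5 genes nearest to *Apln* were *Egln1* (0.13), *Fgf8* (0.17), *Adm* (0.18), *Egln3* (0.30) and *Ndrg1* (0.34), of which 4 were hypoxia targets and 1 a streak gene. A nearly level WT, a decrease in promoter KO and a higher level in promoter KO 2 are built into this distance, since *Apln* itself had them. The lists were chosen with earlier results of these data known, so nothing is read from the share of hypoxia targets. *Egln1* was listed at 50.6 and 55.5 FPKM in WT against 10.6 and 20.1 FPKM in promoter KO, values close to those of *Apln* itself. *Fgf8*, a growth factor that streak cells need to move away, was at 196 and 213 FPKM in WT against 48.9 and 77.7 FPKM in promoter KO. By the same measure *Apln* was the 59th nearest gene to *Aplnr* and *Aplnr* the 4456th nearest to *Apln*, at the same distance of 1.77. The ranks differ because many more genes lie close to *Apln*.

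Ratios of *Aplnr* to other genes within a sample were chosen after their values were seen and are a description only. *Aplnr* varied 58.6 times between its lowest and highest sample and *Mesp1* 132.7 times, and the ratio of *Aplnr* to *Mesp1* was 0.295, 0.253, 0.573 and 0.280 in WT 1, WT 2, promoter KO 1 and promoter KO 2. Relative to *T* it was 0.0260 and 0.0569 in WT against 0.00861 and 0.00934 in promoter KO, and relative to *Mixl1* 0.126 and 0.334 in WT against 0.0782 and 0.0744 in promoter KO. *Aplnr* was thus lower in promoter KO EBs also against *T* and *Mixl1*, while its ratio to *Mesp1* varied 2.27 times without a fixed order of the genotypes. Since *Aplnr* was chosen by its large decrease, a lower ratio to genes that fell less follows from that choice.

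**Figure D5:**
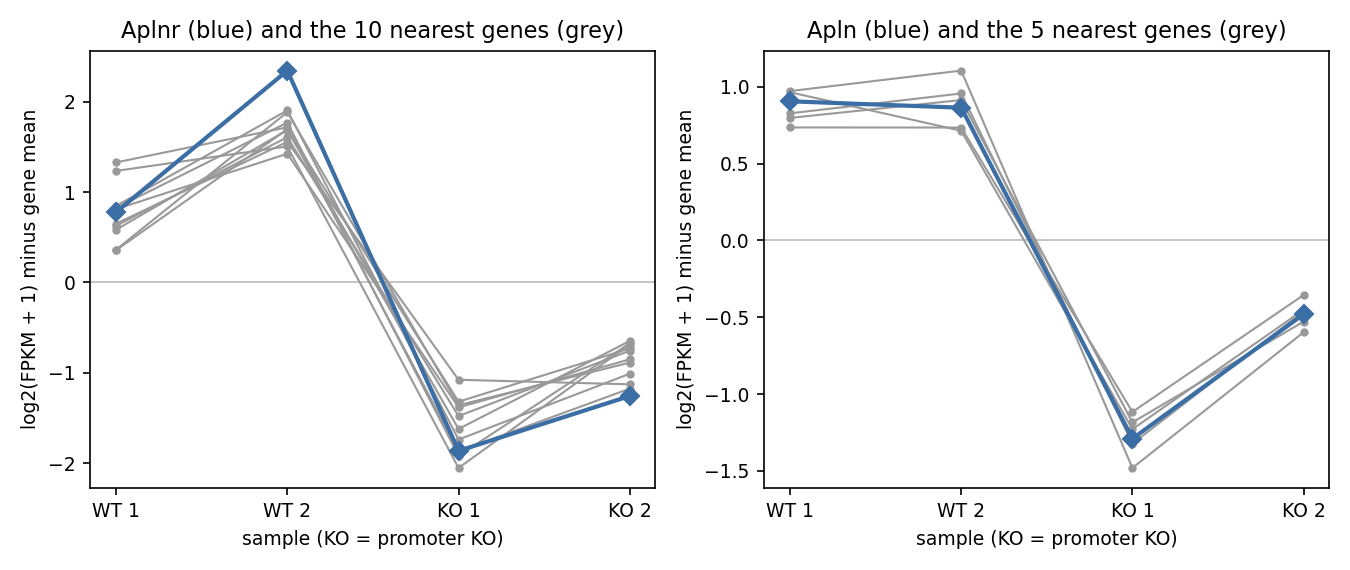
Profiles of *Aplnr* (left) and *Apln* (right) over the 4 samples in log2(FPKM + 1) minus the mean of each gene, with the 10 and 5 nearest genes in grey; lines only join the values of a gene. *Aplnr* was higher in WT 2 than in WT 1, while *Apln* was nearly level between the WT samples. The nearest genes share these patterns because they were chosen by likeness over the same samples.

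The 250 bases before the start of *Apln* were searched for short motifs on both strands, with sequence from RefSeq (GRCm38.p6, chrX:48034854-48035103, minus strand). The motif CAGAC, bound by SMAD proteins, occurred 1 time and is in capitals; 42.2% of 32851 promoters of this length hold it. ACGTG, the core of hypoxia response elements, occurred 0 times here and in 16.6% of promoters, and TCACACCT, a T-box site, 0 times and in 1.1%. CANNTG, the E-box, occurred 3 times in *Apln* and 2 times before *Apela*, and in 66.2% of promoters. The *Apela* promoter held 0 matches to the other motifs. A match is a description of letters and not of a bound site, and no match says only that the letters are not in this window.
Apln promoter: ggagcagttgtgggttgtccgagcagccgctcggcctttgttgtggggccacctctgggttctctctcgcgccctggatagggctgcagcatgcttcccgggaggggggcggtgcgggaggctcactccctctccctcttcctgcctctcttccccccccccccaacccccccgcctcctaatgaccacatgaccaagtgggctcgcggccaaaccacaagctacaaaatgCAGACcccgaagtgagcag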

How the data were processed

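RNA-seq of day 3 EBs was used, with 2 samples per genotype. Per the methods, the authors mapped reads to GRCm38/mm10 with TopHat and estimated levels of GENCODE M4 genes with Cufflinks; the submitters' processing notes name HISAT2 2.1.0, Cufflinks and Cuffnorm instead. The unit is called RPKM in the methods and was taken here as FPKM, as deposited by the authors, 1 file per sample. The strand setting is not given in the sources used here.

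log2(FPKM + 1) of the 11941 genes that reached 1 FPKM in 2 or more samples was fitted for genotype with limma 3.58.1 in R 4.3.3 (lmFit, then eBayes with trend), with Benjamini-Hochberg adjustment over all genes tested; called genes have an adjusted p under 0.05. Alternatives changed the pseudocount, filter, normalization, intensity trend and replicate block, or left out each sample in turn. The procedure was also run on simulated data, whose outcome is not given here. Depth was estimated from 5671 single-transcript genes at a fitted fragment length of 250 bases, and intervals on fragments cover counting error only. Near-identical copies were sought with BLAST 2.17.0 (95% identity over 200 bases) in GENCODE M21. Python 3.11.15, numpy 2.4.6, pandas 2.3.3, scipy 1.17.1 and matplotlib 3.10.9 were used.

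The members and lists were chosen with earlier results of these data known. An untested gene was taken out of the apelin list after the analysis and is not reported here. Named genes are *Aplnr*, *Apln*, *Apela* and *Gm11549*, called genes of the apelin list, the 4 called genes of each other list with the largest difference (the 2 most abundant where fewer than 2 were called), the 10 and 5 nearest profiles, 3 neighbours on either side, the cell type markers, the most abundant gene of a list, its genes at 0 and genes next in rank to a member; others are named in the text as chosen after their values were seen.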

Additional observations from a re-analysis of the deposited data

How the results depend on the processing

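*Aplnr* and *Apln* were lower in promoter KO under every setting tried, with log2 differences of −3.90 to −2.34 and −2.18 to −1.37 when each sample was left out in turn. The *Aplnr* difference moved to −4.11 with a pseudocount of 0.1 and −4.37 as the log2 ratio of mean FPKM. The counts of called genes moved more, and the cause was not tested. Genes lower and higher numbered 0 and 0 without a filter, 108 and 95 at a mean of at least 5 FPKM, 27 and 55 without the intensity trend, and 126 and 157 after median centring. Leaving out samples gave 0 to 342 lower and 0 to 296 higher genes, with the lone sample of a genotype assumed to vary like the other genotype. Called streak genes numbered 0 without a filter and 1 without the trend, and called hypoxia targets likewise 0 and 1. Leaving out samples gave 0 to 14 streak genes, 0 to 16 hypoxia targets and 0 to 4 apelin pathway genes. The difference of *Ssrp1* was 0.0293 after median centring, −0.0687 after quantile normalization and between −0.0118 and 0.0078 with a sample left out, and that of *Apela* between −0.0596 and 0.47. Of 42 called named genes, 42 were no longer called without a filter, 30 without the trend, 8 after median centring, 7 at a mean of at least 5 FPKM (where 5 more were not tested), 5 with a pseudocount of 0.1 and 4 after quantile normalization.

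With the replicate number as a replicate block, 667 genes were lower and 535 higher, with 20 streak genes, 19 hypoxia targets and 3 apelin pathway genes (*Gnai2*, *Hdac5* and *Map2k1*) called. By the correlation of their deviations (0.0348) same-numbered samples did not deviate together. Some genes did: of 30 streak genes 27 in WT and 22 in promoter KO were higher in sample 2. *Aplnr* was higher there in both genotypes (log2 differences 1.57 and 0.61) and *Apela* lower (−0.42 and −0.53), while *Apln* went both ways (−0.04 and 0.81). With 2 pairs it cannot be told whether the numbers are more than names. The depth of about 20400000 to 25500000 fragments limits *Aplnr* in promoter KO to some 33 and 83 fragments.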
